A study of Caenorhabditis elegans with 4 samples.

Results

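Broad binding regions of EGL-27::GFP that stood outside dense groups of regions were examined in fed L1 larvae of the nematode Caenorhabditis elegans. The members were chosen by measured width and position, and a region was taken as broad when it was at least 450 bp wide. Regions of one chromosome separated by gaps of at most 2000 bp were joined into stretches, and every region in a stretch of 3 or more was left out. This rule kept 392 broad regions of the 3728 in the list, and 2853 narrower regions outside dense stretches were used for comparison. The 132 dense stretches held the remaining 483 regions, 146 of them broad.

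EGL-27 is a nuclear protein with a GATA-type zinc finger and is related to the MTA proteins, which are subunits of nucleosome remodelling and deacetylase complexes. In C. elegans it is known for roles in embryonic patterning, in the polarity of dividing cells and in the regulation of Hox gene expression. The chromosomes of this worm have no single centromere. On the autosomes, a central part that is rich in genes and recombines little lies between 2 arms that hold more repeats and recombine more. On X this division is weaker.

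The series held 4 samples in 2 groups, 2 libraries of ChIP DNA and 2 libraries of input DNA, with replicates 1 and 2 in each. All came from hermaphrodites of strain OP177, which carry the allele unc119(ed3) and the transgene wgIs177. In this transgene egl-27 is joined to TY1, EGFP and FLAG tags, beside a copy of unc119, and it had been introduced by bombardment. The worms were grown at 20 °C and fixed with 2% formaldehyde at the fed L1 stage, so ChIP and input share the transgene. The fusion protein was recovered with a goat antiserum against GFP from whole animals, so signals of different cell types are averaged. One protocol text in the labels speaks of embryos, while every sample is labelled fed L1. A combined list was used, in which each region has a first base, a last base and a q-value for ChIP over input tags. It gives no value per library, so the spread between replicates is unknown, as is the depth. All tests below take regions as the units, treat them as independent, and cover counting error only.

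The broad regions covered 250360 bp, or 25.4% of all base pairs in the list, although they were 10.5% of its regions. Their width ranged from 450 to 2144 bp, with a median of 563.5 bp and quartiles of 496.75 and 710.25 bp. Most were only moderately wide. There were 234 regions under 600 bp, 132 of 600 bp to under 1000 bp and 26 of 1000 bp or more. Broad regions inside dense stretches reached 6451 bp, with a median of 647 bp.

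The authors' q-values come from the same calling step as the width, so they describe the members and test nothing. The median q-value was 3.09e-08 in broad regions and 0.00152 in narrower ones. It was 7.12e-07 in broad regions under 600 bp, 5.68e-11 in those of 600 bp to under 1000 bp and 6.27e-19 in those of 1000 bp or more. A q-value under 1e-05 was found in 292 broad regions (74.5%), where 20% of all listed regions had one. Under 1e-10 the count was 136 (34.7%, against 5.98% of the list), and under 1e-20 it was 30 (7.65%, against 1.45% of the list). Among the first 100 regions of the whole list by q-value, 60 were broad and outside dense stretches, 33 were broad and inside them, and 5 were narrower and outside. Of the first 10, 3 were broad regions outside dense stretches and 7 were broad regions inside them.

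**Figure D1:**
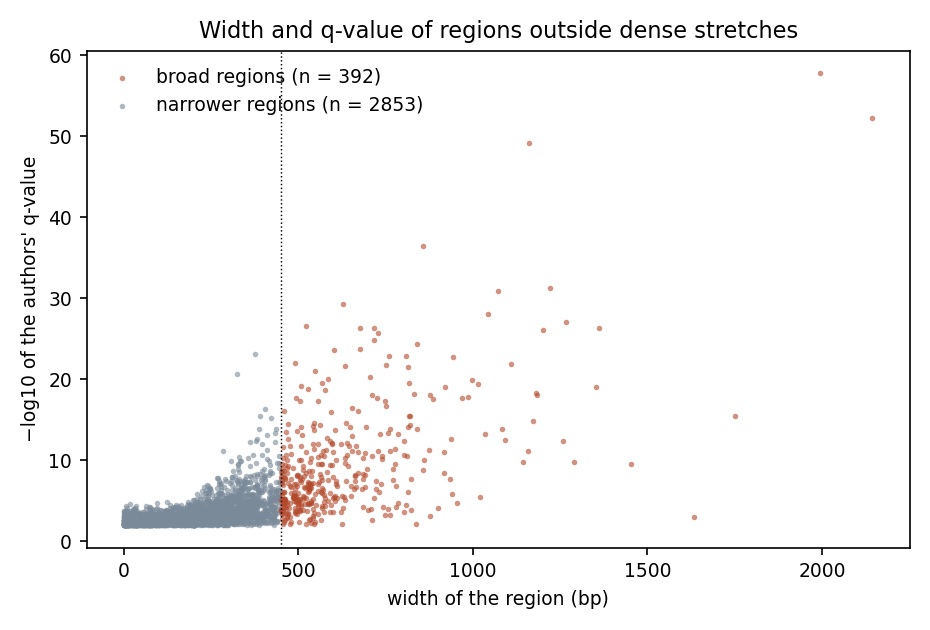
Width in bp (horizontal axis) and −log10 of the authors' q-value (vertical axis) of the 392 broad and 2853 narrower regions outside dense stretches, 1 point per region. The dotted line marks 450 bp, and the regions past it reach q-values down to 1.66e-58, while the smallest q-value of a narrower region is 8.37e-24.

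The width limit cut through a continuous range of widths. The 24 regions of 440 to 449 bp had a median q-value of 2.45e-06, and the 30 regions of 450 to 459 bp had a median of 3.79e-06. Just inside the limit lay II:11880583-11881032 (q = 8.89e-05) and III:8874053-8874502 (q = 1.01e-08), both 450 bp wide. The widest regions left outside were 4 of 449 bp. They were I:8747823-8748271 (q = 1.93e-08), I:9665063-9665511 (q = 3.24e-04), V:12001867-12002315 (q = 9.22e-05) and X:5801134-5801582 (q = 2.73e-09).

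The member with the smallest q-value was IV:14032598-14034591, 1994 bp wide, with q = 1.66e-58. It was the second region of the whole list by q-value and stood alone on the right arm of chromosome IV, 36064 bp from its nearest neighbour. I:9380086-9382229, the widest member at 2144 bp, came next with q = 4.91e-53. It was followed after a gap of 500 bp by I:9382730-9384181, 1452 bp wide, whose q-value was 2.97e-10. On chromosome III, 2 wide regions likewise lay 390 bp apart, III:8799731-8800932 (1202 bp, q = 8.87e-27) and III:8801323-8802484 (1162 bp, q = 5.93e-50). Both of these close pairs lay in the central part of their chromosome.

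The other members among the 10 with the smallest q-values were spread over X, I and III. On X they were X:10568355-10569212 (858 bp, q = 3.43e-37), X:5840846-5841473 (628 bp, q = 5.29e-30) and X:4208575-4209842 (1268 bp, q = 7.60e-28). On chromosome I they were I:5315786-5317006 (1221 bp, q = 4.74e-32) and I:7474766-7475838 (1073 bp, q = 1.32e-31). On III they were III:7155059-7156101 (1043 bp, q = 8.04e-29) and III:4649178-4649700, which at 523 bp was the narrowest of the 10 (q = 2.26e-27). Neither V nor II was represented among them.

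Great width did not always go with a small q-value. V:5283999-5285749 was 1751 bp wide with q = 3.60e-16, and V:264948-266579, near the left end of V, was 1632 bp wide with q = 8.56e-04. The widest members on II and X were II:6347601-6348889 (1289 bp, q = 1.37e-10) and X:6749185-6750545 (1361 bp, q = 4.85e-27). The remaining regions among the 10 widest were IV:16491399-16492752 (1354 bp, q = 9.38e-20) and II:5660975-5662231 (1257 bp, q = 3.95e-13). At the other end, 19 broad regions had a q-value of 0.001 or more, 16 of them under 600 bp wide. All positions are in WormBase WS180. No sequence or gene is given for them, since no genome or annotation of that build was used.

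Broad regions were distributed over the chromosomes differently from narrower ones, with more on X and fewer on V. X held 97 of the 392 broad regions, or 24.7% (95% exact interval 20.6 to 29.3%), and 514 of the 2853 narrower regions, or 18.0% (16.6 to 19.5%). The ratio of the shares was 1.37 (95% interval 1.14 to 1.66, Fisher's exact test, two-sided, p adjusted over 6 chromosomes = 0.00569). V held 43 broad regions, or 11.0% (8.05 to 14.5%), and 548 narrower ones, or 19.2% (17.8 to 20.7%), a ratio of 0.571 (0.427 to 0.765, Fisher's exact test, adjusted p = 2.17e-04). Per Mb of chromosome this came to 5.49 broad and 29.1 narrower regions on X, and to 2.06 broad and 26.3 narrower regions on V. Broad regions made up 15.9% of the regions outside dense stretches on X and 7.28% on V. Chromosome I was close to X, with 14.6%, while IV had 12.5%, III 11.5% and II 10.5%.

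The other 4 chromosomes did not pass the test. The ratio was 1.24 on I (0.995 to 1.55, Fisher's exact test, adjusted p = 0.130), with 75 broad and 440 narrower regions. It was 0.855 on II (0.640 to 1.14, Fisher's exact test, adjusted p = 0.453), 0.948 on III (0.749 to 1.20, adjusted p = 0.772) and 1.04 on IV (0.823 to 1.31, adjusted p = 0.772). No difference was called on these 4 chromosomes, and how large a difference these numbers could detect was not computed. Both calls held when the narrower regions were restricted mildly and not always when they were restricted further. Against the 1210 narrower regions in the better-scored 50% of the list, the ratio was 1.40 on X and 0.587 on V (Fisher's exact test, adjusted p = 0.00774 and 0.00198), and against the 2076 of at least 100 bp it was 1.33 on X and 0.602 on V (adjusted p = 0.0202 and 0.00193). Against the 604 narrower regions of 300 bp or more alone, an alternative chosen after seeing the data, the ratio was 1.24 on X and 0.779 on V (Fisher's exact test, adjusted p = 0.508 and 0.525). Against the 430 narrower regions in the better-scored 25% of the list, also chosen later, X passed (ratio 1.48, Fisher's exact test, adjusted p = 0.0336) and V did not (0.655, adjusted p = 0.0611).

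**Figure D2:**
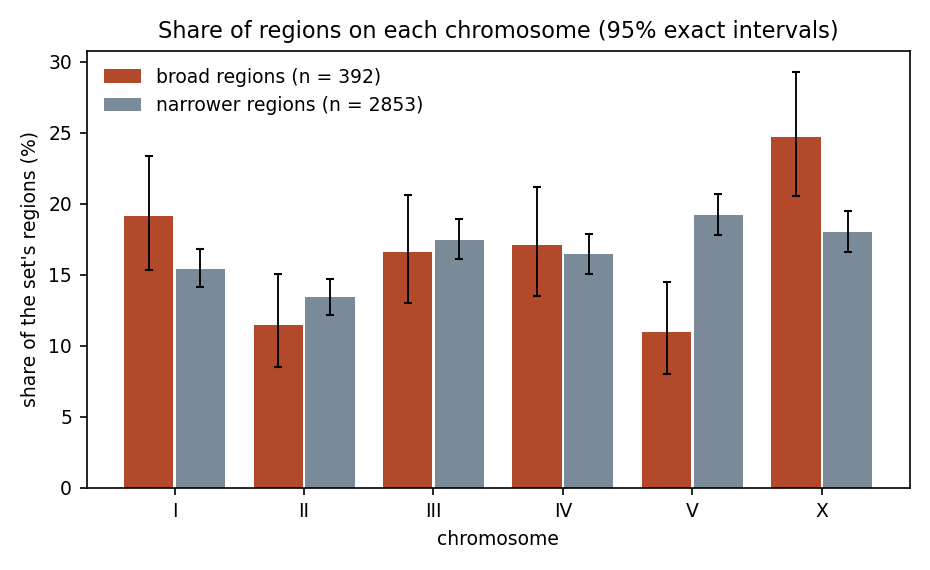
Share of the broad regions (n = 392) and of the narrower regions (n = 2853) outside dense stretches that lies on each chromosome, in percent, with 95% exact binomial intervals. Broad regions are more frequent on X (24.7% against 18.0%) and less frequent on V (11.0% against 19.2%).

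Broad regions lay more often in the middle of the chromosomes. The central 33.3% held 171 broad regions, or 43.6% (38.7 to 48.7%), and 1024 narrower regions, or 35.9% (34.1 to 37.7%), a ratio of 1.22 (1.07 to 1.37, Fisher's exact test, two-sided, p adjusted over 3 tests = 0.00546). The part to the left of it held 26.8% of broad and 32.0% of narrower regions, and the part to the right held 29.6% of broad and 32.1% of narrower regions. The last base of the list on a chromosome stood for its length. Over a central part of 50%, the shares were 60.2% of broad and 55.4% of narrower regions, and this wider definition did not pass (Fisher's exact test, adjusted p = 0.0737).

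The central position was seen on the autosomes. There 146 of 295 broad regions, or 49.5%, lay in the central part, and 871 of 2339 narrower regions, or 37.2%, a ratio of 1.33 (1.17 to 1.51, Fisher's exact test, adjusted p = 9.13e-05). The share in broad regions was higher than in narrower ones on each autosome. It was 55.4% of broad and 34.5% of narrower regions on III, 49.3% and 35.0% on IV, 51.1% and 39.4% on II, 44.0% and 36.1% on I, and 48.8% and 41.1% on V. On X the order was the other way round, with 25.8% of broad regions (25 of 97) and 29.8% of narrower regions (153 of 514), a ratio of 0.866 (0.602 to 1.24, Fisher's exact test, p = 0.467). The odds ratio of a central position in broad against narrower regions differed between X and the autosomes in Zelen's exact test of equal odds ratios, chosen after the data were examined (odds ratio on X over that on the autosomes 0.496, p = 0.0122, adjusted over 3 such tests 0.0366).

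**Figure D3:**
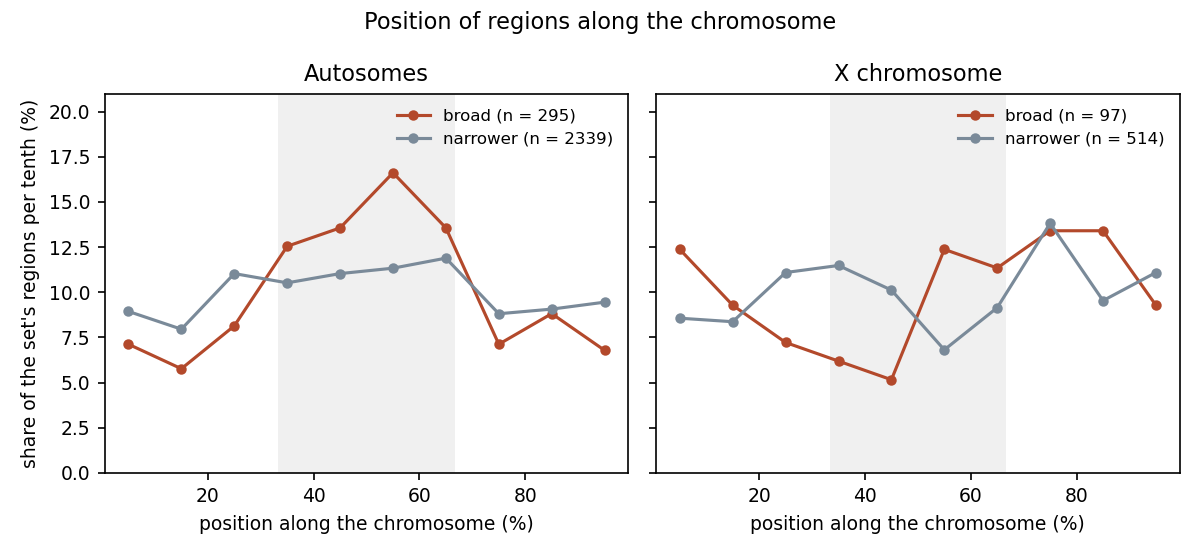
Share of the broad and of the narrower regions in each 10% of the chromosome length, in percent, for the autosomes (295 broad, 2339 narrower) and for X (97 broad, 514 narrower), with the central 33.3% shaded. On the autosomes the share of broad regions is highest just right of the middle, at 16.6%, where narrower regions are at 11.3%. Of the 49 broad regions in that part, 16 lie in the 1 Mb bin of chromosome III with the most broad regions. This peak therefore rests in part on 1 bin, and the share without it was not computed. On X the share of broad regions is lowest just left of the middle, at 5.15%, where narrower regions are at 10.1%.

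Among the members, the central share was close in the lower width classes. The central 33.3% held 99 of the 234 broad regions under 600 bp (42.3%), 56 of the 132 regions of 600 bp to under 1000 bp (42.4%) and 16 of the 26 regions of 1000 bp or more (61.5%), given without a test. Among narrower regions, the share was 39.4% at 300 bp or more, 37.0% at 100 bp to under 300 bp and 31.1% under 100 bp. Set against the narrower regions of 300 bp or more alone, the excess of broad regions in the centre did not pass (ratio 1.11, Fisher's exact test, adjusted p = 0.282). With the 6 chromosomes as the units, 5 had the higher share in broad regions and the exact two-sided sign-flip permutation test gave p = 0.0625, where the smallest possible value was 0.0313.

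Within the chromosomes the members were not evenly spread. Counted in bins of 1 Mb, the median was 3 broad regions per bin, and 4 of 102 bins held none. Only 3 bins held 10 or more, and these were chosen after their values were seen. The bin from 7 to 8 Mb on chromosome III held 16 broad and 33 narrower regions, and the bins at 4 to 5 Mb and 9 to 10 Mb on I held 10 broad regions each, with 35 and 48 narrower ones. Of the 16 on III, 14 lay within 104 kb, at III:7112937-7217362, where 22 regions were listed in all. These 14 were 460 to 1143 bp wide, with q-values between 8.04e-29 and 6.25e-04. Without this bin of III the central share was 41.2% in broad and 35.1% in narrower regions (Fisher's exact test, adjusted p = 0.0331).

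Broad regions had closer neighbours than narrower ones, in part through close pairs. The gap to the nearest listed region, measured from edge to edge, had a median of 4071.5 bp for broad regions (quartiles 1545 and 12401 bp) and 7353 bp for narrower regions (quartiles 2381 and 17632 bp). A neighbour lay within 10 kb for 269 broad regions, or 68.6% (63.8 to 73.2%), and for 1644 narrower regions, or 57.6% (55.8 to 59.4%), a ratio of 1.19 (1.11 to 1.28, Fisher's exact test, two-sided, p adjusted over 3 tests = 9.09e-05). Of the 269 broad regions with a neighbour within 10 kb, 123 had one within the joining distance of 2 kb, a gap that the rule itself used, so this test and those by chromosome are not independent of the rule. When regions in such pairs were left out, a choice made later, 54.3% of the 269 single broad regions and 46.4% of the 2256 single narrower regions had a neighbour within 10 kb, which did not pass (ratio 1.17, Fisher's exact test, p = 0.0167, adjusted 0.0502). With pairs included, the shares within 5 kb were 55.1% of broad and 41.7% of narrower regions (Fisher's exact test, adjusted p = 2.05e-06). Within 20 kb they were 85.7% and 78.3% (Fisher's exact test, adjusted p = 0.00163), and neither test is independent of the rule. Since regions with 2 or more neighbours in a row were left out of both sets, these values hold outside dense stretches only.

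The difference had the same direction on all 6 chromosomes. The share with a neighbour within 10 kb was 78.5% of broad and 62.5% of narrower regions on III, 72.0% and 60.9% on I, 68.7% and 54.8% on IV, 67.4% and 55.1% on V, 64.4% and 52.7% on II, and 61.9% and 58.9% on X. The exact sign-flip permutation test over the 6 chromosomes gave p = 0.0313, the smallest it can give. Stratified by chromosome and by left, central or right part, also chosen later, the ratio was 1.17 (exact conditional test over strata, p = 1.48e-04). Measured between midpoints, which lie further apart in wider regions, the shares were 67.6% of broad and 57.0% of narrower regions (Fisher's exact test, adjusted p = 1.93e-04). The ratio was also 1.16 against the narrower regions of 300 bp or more alone (Fisher's exact test, adjusted p = 0.00757). All tests in this paragraph kept the regions in pairs, so they are not independent of the rule either.

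**Figure D4:**
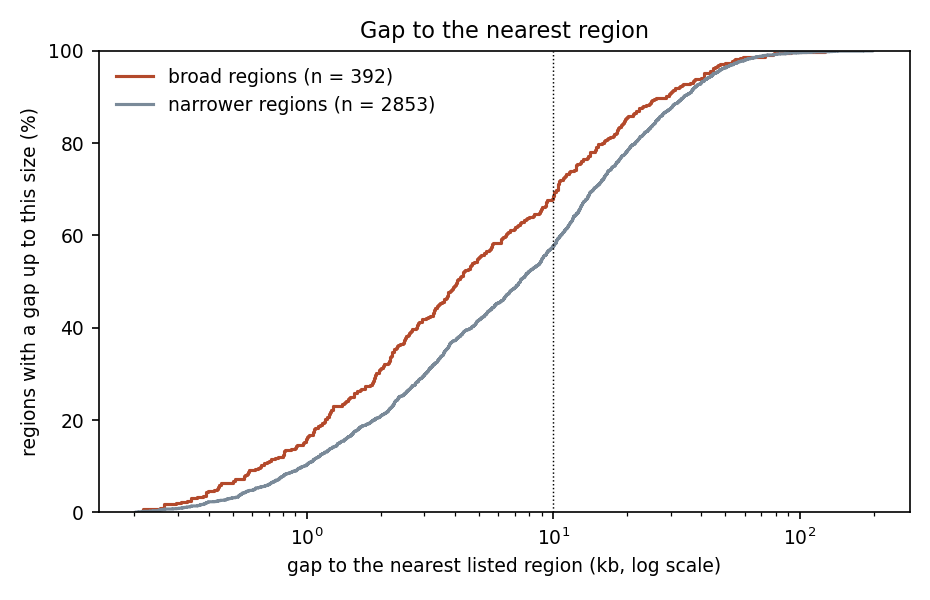
Cumulative share of the broad (n = 392) and narrower (n = 2853) regions, in percent, by the gap to the nearest listed region in kb on a log axis, with a dotted line at 10 kb. The curve of broad regions lies to the left of that of narrower regions, with 68.6% against 57.6% at 10 kb.

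Part of this closeness lay in pairs, that is, stretches of exactly 2 regions. A partner within 2 kb was found for 123 broad regions (31.4%) and for 597 narrower regions (20.9%). As the joining distance is part of the rule, these shares are given without a test. Of the 360 pairs, 20 joined 2 broad regions, 83 joined a broad and a narrower region, and 257 joined 2 narrower regions, with median gaps of 887, 1004 and 1008 bp. Pairs of broad regions were found on I (6), III (5), IV (4), X (3) and II (2), and V had none. Most of those on III lay within III:7112937-7217362. The closest such pair was IV:10935176-10935690 and IV:10935907-10936428, 216 bp apart, which was chosen after its values were seen. Without the regions in pairs, the central share was 38.3% in broad and 35.5% in narrower regions (Fisher's exact test, adjusted p = 0.382), while X (ratio 1.56, adjusted p = 5.56e-04) and V (0.575, adjusted p = 0.00163) still passed.

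**Figure D5:**
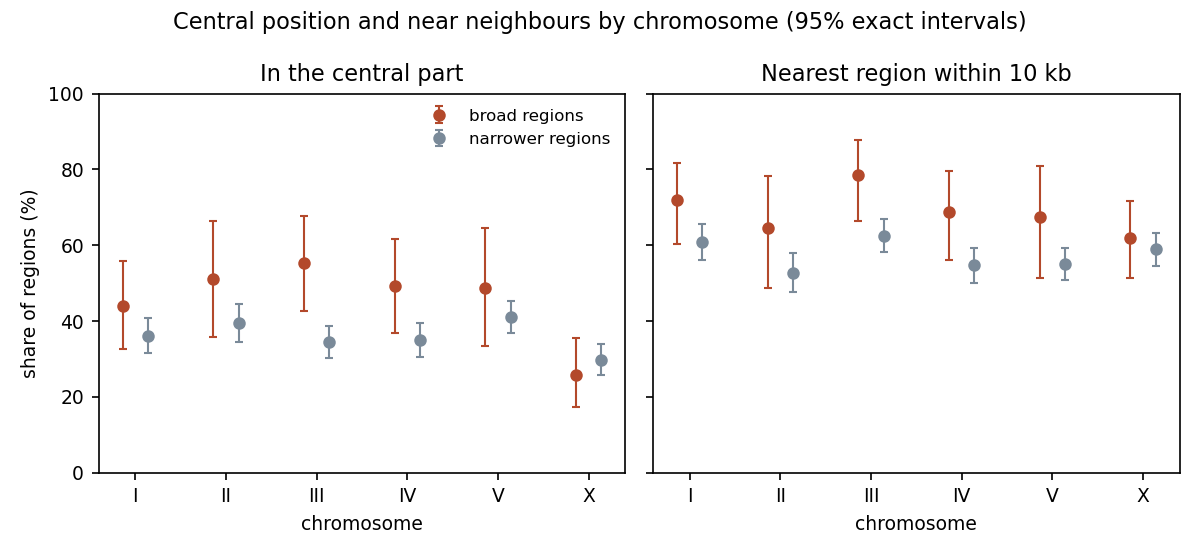
Share of the broad and of the narrower regions on each chromosome that lies in the central 33.3% (left panel) and that has its nearest listed region within 10 kb (right panel), in percent, with 95% exact binomial intervals. The central share is higher in broad regions on I to V and lower on X (25.8% against 29.8%), and the share with a near neighbour is higher in broad regions on each chromosome, by least on X (61.9% against 58.9%).

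The nearest neighbour of a broad region was itself broad in 80 cases, or 20.4% (16.5 to 24.7%), and that of a narrower region was broad in 376, or 13.2% (12.0 to 14.5%), a description with no test. Of the 3728 listed regions, 538 were broad. The 80 cases include both members of each of the 20 pairs of broad regions. They are therefore not independent of each other or of the rule, and the interval is too narrow. The gap to the nearest other broad region outside dense stretches had a median of 65458.5 bp for broad regions and 85887 bp for narrower ones. A dense stretch lay within 100 kb of 112 broad regions, or 28.6%, and of 693 narrower regions, or 24.3%, which did not pass (ratio 1.18, 0.993 to 1.39, Fisher's exact test, adjusted p = 0.0705). This share passed with a width limit of 400 bp (ratio 1.22, Fisher's exact test, adjusted p = 0.0120) and of 600 bp (1.32, adjusted p = 0.0297), and with a joining distance of 1000 bp (1.34, adjusted p = 0.00905). It did not pass with a joining distance of 5000 bp (ratio 1.01, Fisher's exact test, adjusted p = 0.951) or without the 7 to 8 Mb bin of III (1.08, adjusted p = 0.406). Within 200 kb, 40.8% of broad and 40.8% of narrower regions had a dense stretch. The joining distance that defines dense stretches also chose both sets, so none of these dense stretch tests is independent of the rule. A changed joining distance alters the members and the stretches at once.

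A few members stood far from any other region. The most isolated was X:25396-26232, 837 bp wide and close to the left end of X, whose nearest listed neighbour lay 126654 bp away and whose q-value was 0.00771. II:11042696-11043356 was 92363 bp from its neighbour (661 bp, q = 3.25e-08). X:1626905-1627470 (566 bp, q = 2.96e-10) and X:9225159-9225652 (494 bp, q = 8.57e-08) were 78690 and 78057 bp away, and I:3647936-3648397 (462 bp, q = 2.21e-08) was 72455 bp away. In all, 10 broad and 106 narrower regions were more than 50 kb from the nearest listed region. The shares were close, since 97.4% of broad, 96.3% of narrower and 96.9% of all listed regions had a neighbour within 50 kb.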

How the data were processed

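Anti-GFP ChIP and input DNA were sequenced from 4 libraries, per the labels. The deposited list names PeakSeq as the caller and WormBase WS180 as the build, per the file headers, and gives for each region a q-value, which is a p-value adjusted for multiple testing, computed by the authors on the combined libraries. Not given in the sources used here are the aligner, the caller's settings and the library depth. Coordinates count from 1. No gene was assigned, because the gene table at hand is of another build.

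Width is last minus first base plus 1, and gaps are the bases between regions. Shares were compared with two-sided Fisher's exact tests in SciPy 1.17.1, with Benjamini-Hochberg adjustment over 6 chromosomes and over the 3 tests of centre, neighbour and dense stretch, and a threshold of 0.05. Intervals are exact 95% binomial ones for shares and normal ones on the log scale for ratios. They cover counting error only. Odds ratios on X and autosomes were compared with Zelen's exact test, and strata with an exact conditional test. The functions were tested on simulated data. The members, lists and tests were chosen with earlier results of these data known. Regions named are the 10 smallest q-values, the 10 widest, the widest per chromosome, those at the width limit and the 5 most isolated.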

Additional observations from a re-analysis of the deposited data

Results flagged for a closer look

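The difference between broad and narrower regions in the share lying in the central 33.3% of the chromosome was not the same on X and on the autosomes, and it was singled out because the difference between these groups of chromosomes itself passed a test. The ratio of the odds ratio on X to that on the autosomes was 0.496 (Zelen's exact test, p adjusted over 3 tests = 0.0366), with central shares of 25.8% in broad and 29.8% in narrower regions on X, and of 49.5% in broad and 37.2% in narrower regions on the autosomes. The same test was run for near neighbours (0.624, Zelen's exact test, adjusted p = 0.119) and for dense stretches within 100 kb (1.09, adjusted p = 0.785), and neither passed. Near neighbours and dense stretches are not independent of the rule. All 3 tests were chosen after the data were examined. Without the regions in pairs, the central excess over all chromosomes did not pass (ratio 1.08, Fisher's exact test, adjusted p = 0.382). X is a single chromosome, so a difference between X and the autosomes cannot be told apart from a difference between chromosomes in general.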

How the results depend on the processing

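No paired analysis was possible because values of single libraries were not used here, so replicates could not be left out either. Values are ratios of the share in broad regions to that in narrower ones. Of 113 recomputed ratios, 87 kept direction and side of the threshold, 10 lost the call, 5 gained one and 11 changed direction, all of the last on II, III or IV, which were not called. The central share lost its call with a joining distance of 5000 bp (1.14), a central 50% (1.09), the sign-flip over chromosomes (1.24), narrower regions of the better-scored 25% (1.10) or of at least 300 bp (1.11), and without pairs (1.08). V lost its call against the better-scored 25% (0.655) and against regions of at least 300 bp (0.779), X against the second (1.24), and the neighbour share without pairs (1.17). Calls were gained at a width limit of 600 bp on I (1.47) and II (0.564), and for dense stretches at 400 bp (1.22), at 600 bp (1.32) and with a joining distance of 1000 bp (1.34). The dense stretch share is not independent of the rule. Direction changed on III and IV at 600 bp (1.10 and 0.836), on IV with a joining distance of 1000 bp (0.984), against the better-scored 50% (0.994), the better-scored 25% (0.774) and regions of at least 300 bp (0.906), and without pairs (0.967), on II against the better-scored 25% (1.01), and with dense stretches included on II (1.05), III (1.00215) and IV (0.910). Fewer regions entered without pairs and against the subsets, and the differences that lost their call there were also smaller than in the main comparison. The cause of the changed calls was not tested. The unknown depth limits what can be said of width, which depends on how far tags pass the caller's threshold.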

Other observations

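The q-values can be read back as tag numbers, which describe the members further. Each q-value times its rank in the list was compared with whole multiples of binomial tails (share 0.5) for a given sum of tags. Products that 8 or more regions had in common gave 101 levels. At a multiple of 6924, 100% of them equalled such a tail within a relative tolerance of 1e-08, and the best other multiple from 3728 to 20000 matched 0.99%. A single pair of ChIP tags and scaled input tags gave the q-value of 390 of the 392 broad and 2837 of the 2853 narrower regions. The authors' own tag numbers were not used here, and these pairs come from the same step as width and q-value, so no test was made.

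Read this way, broad regions held more tags than narrower ones, while the median ratios of ChIP to input tags were close. The median was 106 ChIP tags (quartiles 84 and 147.5) in broad and 37 (26 and 52) in narrower regions, and 37 scaled input tags in broad and 13 in narrower ones. The ratio of ChIP to input tags had a median of 2.94 (quartiles 2.5 and 3.58) in broad and 3 (2.55 and 3.75) in narrower regions. A ratio of 5 or more was found in 15 broad (3.85%) and 246 narrower regions (8.67%), where a region with few tags needs a high ratio to be listed. Among the 604 narrower regions of 300 bp or more, 14 had such a ratio (2.32%), and their median ratio was 2.73 (quartiles 2.30 and 3.3), below that of broad regions. Per kb, broad regions had 61.5 input tags in the median, against 67.8 in narrower regions of 300 bp or more and 76.9 in all narrower regions, which are as short as 1 bp.

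The highest ratio of a broad region was 6.92 (95% exact interval 4.57 to 10.9), in III:4649178-4649700, with 180 ChIP and 26 input tags. IV:14032598-14034591 had 519 and 116 tags, a ratio of 4.47 (3.65 to 5.52), and I:9380086-9382229 had 466 and 103, a ratio of 4.52 (3.65 to 5.66). Its close neighbour I:9382730-9384181 had 197 and 85, a ratio of 2.32 (1.79 to 3.03). The lowest ratio, 1.24 (1.10 to 1.41), belonged to V:264948-266579, with 593 and 477 tags and the highest input density of all members, 292.3 per kb. The intervals treat scaled input tags as counts, so they leave out the error of the scaling. The members with the highest and the lowest ratio were picked after their values were seen. Of the 19 broad regions with a q-value of 0.001 or more, 16 had a ratio under 2.

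The 14 broad regions at III:7112937-7217362 had more input tags than other broad regions, a comparison chosen after their values were seen. They had a median of 98.9 input tags per kb (60.8 to 146.9) and a median ratio of 1.98 (1.67 to 3.25), against 61.2 per kb and a ratio of 3 in the other 378. The 33 narrower regions from 7 to 8 Mb on III had a median of 93.2 input tags per kb and a median ratio of 2.59, against 76.9 per kb and a ratio of 3 in all narrower regions. A ratio under 2 was found in 5 of these 33 (15.2%) and in 2.64% of all narrower regions. Among broad regions, it was found in 7 of the 14 and in 22 of the 378. Of the 19 broad regions with more than 100 input tags per kb, 7 lay in this run. What raised the input there was not tested.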
